A study of Mus musculus with 24 samples.

Results

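The 10 genes Acss2, Acly, Acaca, Fasn, Scd1, Scd2, Elovl6, Fads1, Fads2 and Me1 encode enzymes that build fatty acids from acetyl-CoA and put double bonds into them. They were chosen by name, as enzymes of this pathway, and all 10 were found among the 12310 genes of the count table. MIN6, an insulinoma line of mouse pancreatic β-cells described as wild type, was either treated with verapamil (50 µM; 24 h), a blocker of voltage-gated calcium channels, or left untreated (control). Both groups were kept at 5.6 mM glucose, and 12 mRNA libraries per group were sequenced. The methods describe 4 sets of experiments, here called sets 1 to 4, with 3 replicates of each group in a set. A line in culture is a limited model of an islet β-cell, since all libraries come from a single tumour line.

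Cells make palmitate in the cytosol. ATP citrate lyase (Acly) and acetyl-CoA synthetase (Acss2) supply acetyl-CoA, acetyl-CoA carboxylase (Acaca) turns it into malonyl-CoA, and fatty acid synthase (Fasn) joins these units with NADPH that malic enzyme (Me1) helps to provide. Elovl6 lengthens palmitate to stearate, Scd1 and Scd2 desaturate the saturated products, and Fads1 and Fads2 desaturate polyunsaturated fatty acids from the diet. Many of these genes are known targets of the sterol regulatory element binding proteins (SREBPs), and β-cells are known to make fatty acids at a lower rate than liver or adipose tissue.

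The genes lie on 5 chromosomes of GRCm38. The annotation places Acss2 on the forward strand at chr2:155517948-155585724, and Acly (chr11:100476353-100528000) and Fasn (chr11:120805846-120824547) on the reverse strand. Acaca lies on the forward strand of the same chromosome (chr11:84129672-84401651). The desaturase genes fall into neighbouring pairs of opposite strand, Scd2 (chr19:44293674-44306864) with Scd1 (chr19:44394455-44407879) and Fads2 (chr19:10062765-10101746) with Fads1 (chr19:10182888-10196877). Elovl6 lies at chr3:129532355-129638495 on the forward strand and Me1 at chr9:86581371-86695953 on the reverse strand.

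A promoter window from RefSeq (GRCm38.p6; 250 bases before to 50 bases after an annotated start) was at hand for 7 of the 10 genes, namely Acss2, Acly, Acaca, Fasn, Elovl6, Fads2 and Me1. The 120 bases directly before the outermost annotated start are shown for the genes at the ends of the response, namely Acss2 and Fasn with the 2 highest fold changes, Elovl6 with the widest spread, and Me1, which did not pass the test. They are written 5′ to 3′ along the strand of the gene, and capitals mark CCAAT, the box read by nuclear factor Y, or its reverse complement ATTGG.
Acss2, chr2:155517828-155517947, forward strand: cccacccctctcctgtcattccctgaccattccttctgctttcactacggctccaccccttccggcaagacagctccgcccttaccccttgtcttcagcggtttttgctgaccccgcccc
Fasn, chr11:120824548-120824667, reverse strand: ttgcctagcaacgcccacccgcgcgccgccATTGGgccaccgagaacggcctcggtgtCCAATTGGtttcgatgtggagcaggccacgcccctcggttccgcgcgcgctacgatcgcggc
Elovl6, chr3:129532235-129532354, forward strand: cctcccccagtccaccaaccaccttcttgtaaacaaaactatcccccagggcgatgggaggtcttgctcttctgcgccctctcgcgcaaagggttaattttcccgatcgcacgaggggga
Me1, chr9:86695954-86696073, reverse strand: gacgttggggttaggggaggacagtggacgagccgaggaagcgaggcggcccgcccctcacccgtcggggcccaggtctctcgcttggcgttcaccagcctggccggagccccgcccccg
Only the Fasn stretch holds the box, 3 times and with 2 of the copies overlapping. Over the whole windows, CCAAT was found on either strand in 4 of the 8 windows of these genes (Acss2, Acly, Fasn and 1 of the 2 windows of Me1), and in 37.4% of all 32851 windows. In Acss2 it begins 73 bases before the RefSeq start. The window of Acaca belongs to a start 65766 bases downstream of the gene start given above. The window of Me1 with CCAAT belongs to a start 8676 bases downstream of its gene start. These windows therefore say nothing of the sequence at the outermost start. The sterol regulatory element TCACNCCAC was in 0 of the 8 windows and in 1.24% of all windows, and the E-box CACGTG in 0 of the 8 and in 7.15% of all. A match is a string of letters, not a bound site, and no match to 1 motif overlapped a match to another.

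The control libraries held 12590476 to 32360171 counts (median 26642648) and the verapamil libraries 21840159 to 44806556 (median 25584562). All 14 β-cell markers checked were in the count table, with a summed level of 9980 to 12150 CPM (read counts scaled to a common library total) in the control and 8486 to 10540 CPM in verapamil-treated cells, while 0 of 8 adipocyte markers and 1 of 8 hepatocyte markers (Fgb) were in it. Of the β-cell markers 7 of 14 fell, among them Pcsk1 (log2 fold change −2.26), Ins2 (−1.05) and Slc30a8 (−0.88), 2 rose (Mafa, 0.85, and Nkx2-2, 0.62), and 5 did not pass. In the same edgeR test, described below, 31.6% of all genes fell and 31.2% rose. The part of the β-cell markers in the changes of the 10 enzymes was not tested. Spread was wider in the verapamil group (edgeR's biological coefficient of variation 0.275 against 0.102). They also differed from the mean of the control in a way that followed the GC content of genes (r across genes 0.0363 to 0.635, against −0.178 to 0.156 in control libraries). A single verapamil library of set 4, called V11 after its column and carrying no replicate number, stood apart: across its genes this deviation fell with transcript length (r = −0.586, against −0.383 or above in the other verapamil libraries). The 10 genes summed to 3572 CPM in V11, below the 3828 to 4033 CPM of the control libraries and the 5163 CPM or more of the other verapamil libraries, so results are given with and without it. All levels in CPM are scaled by TMM.

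Verapamil-treated MIN6 cells held more transcript of 9 of the 10 enzymes, as compared to the control, and 0 of the 10 passed as lower. In the edgeR quasi-likelihood test (12 against 12 libraries, adjusted p under 0.05 over all 12306 genes tested), 31.2% of all genes were higher and 31.6% were lower, together 62.8%. The median log2 fold change was 0.69 over the 10 genes and −0.003 over all genes. Every verapamil library lay above every control library for 3 of the 10 genes (Acss2, Fads1 and Fads2), a pattern seen in 4.95% of all genes. Without V11 this held for 7 of the 10, adding Acly, Fasn, Scd1 and Scd2, against 6.22% of all genes. The reverse, every verapamil library below every control library, was found for 0 of the 10 genes with V11 (5.18% of all genes) and for 0 without it (5.5% of all genes). In the fit without V11, 9 of the 10 genes were again higher, against 31.4% of all genes. No source places the 3 replicates of a set in separate cultures beyond doubt, so a p-value here reflects only library-to-library spread, part of which may be technical. In bulk RNA, more transcript per cell and more cells of an expressing kind cannot be told apart.

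**Figure D1:**
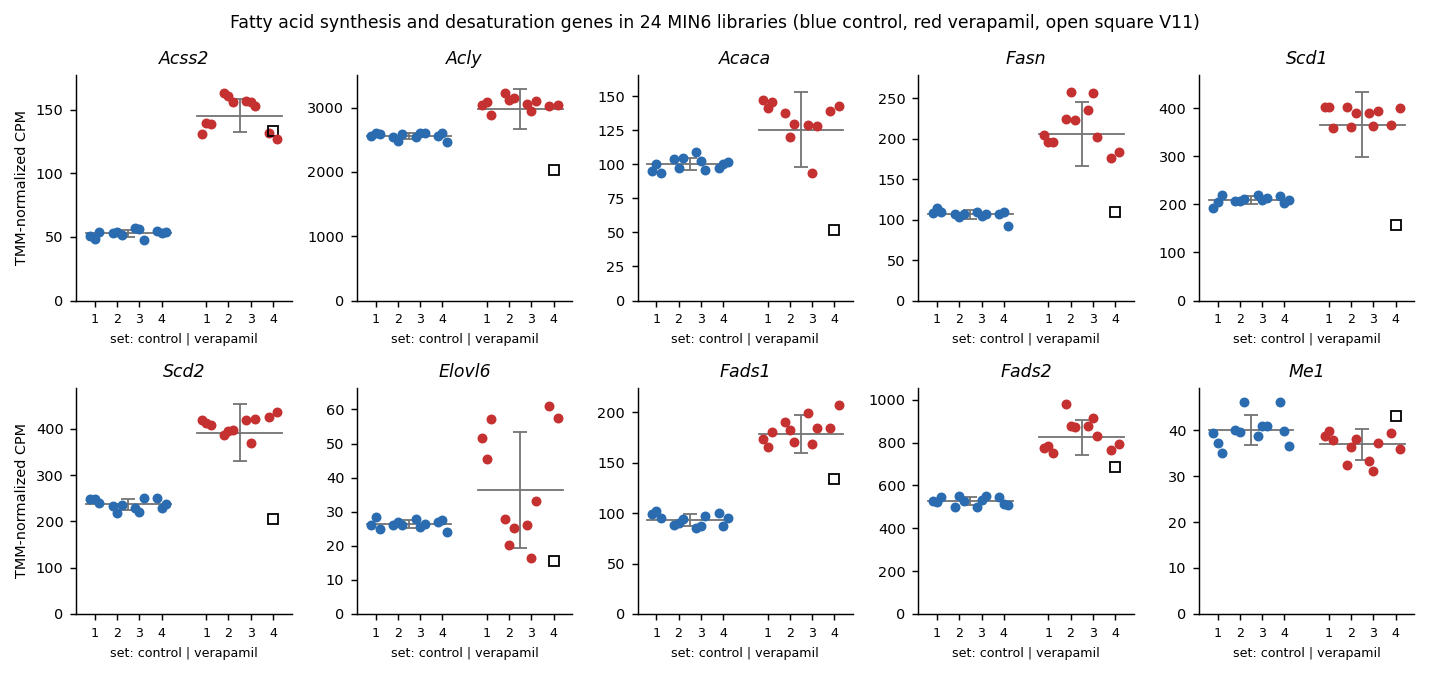
TMM-normalized CPM of the 10 genes in each of 24 libraries, by experiment set (1 to 4), with control libraries in blue, verapamil libraries in red, V11 as an open square, and grey bars for the mean ± SD of 12 libraries. For Acss2, Fads1 and Fads2 all 12 verapamil libraries lie above the control libraries, for Elovl6 the verapamil libraries spread from 15.6 to 60.9 CPM, and for Me1 the groups overlap.

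The supply of acetyl-CoA was compared first. Acss2, which makes acetyl-CoA from acetate, measured 47.2, 53.4 and 56.95 CPM (lowest, median and highest) in the control and 127, 146 and 163 CPM in verapamil-treated cells. All 12 treated libraries were above all controls, V11 (133 CPM) included, and sets 2 and 3 held the higher values. Acss2 rose from 52.8 ± 2.98 to 145 ± 13.3 CPM (mean ± SD, n = 12 each; log2 fold change 1.46, SE 0.049, edgeR adjusted p = 9.8e-18), which is 2.75-fold and the largest change of the 10. Some reads of Acss2 are uncertain, since its exons overlap those of Acss2os, Ggt7 and Gss on the opposite strand and no source used here states whether the counting used strand.

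Acly, which cleaves citrate exported from mitochondria, was by far the most abundant of the 10, at 2470, 2577 and 2606 CPM in the control and 2036, 3055 and 3222 CPM in verapamil-treated cells. The control libraries were tightly grouped, 11 treated libraries lay above them, and V11 alone lay below them. Acly increased 1.16-fold (log2 fold change 0.22, SE 0.050, edgeR adjusted p = 0.00073), or by 0.25 without V11 (adjusted p = 6.7e-09). The ratio of Acss2 to Acly counts within a library does not depend on the scaling between libraries. It rose from a geometric mean of 0.0206 to 0.0489, a log2 difference of 1.25 (permutation test, two-sided, 12 against 12, p = 2e-05, the smallest 100000 resamples can give; adjusted p = 4e-05 over 4 ratios), and it was above all controls in 12 of 12 treated libraries.

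Acaca and Fasn act in sequence, since the carboxylase makes the malonyl-CoA that the synthase consumes. Acaca measured 93.9, 101 and 109 CPM in the control and 51.6, 133 and 147 CPM after verapamil. Of the treated libraries, 10 lay above the control libraries, while V11 and replicate 8 (93.4 CPM) lay below them. Acaca rose 1.25-fold (log2 fold change 0.32, SE 0.11, edgeR adjusted p = 0.012), and by 0.39 without V11 (SE 0.056, adjusted p = 3.2e-06). Its call was lost when set 1 (adjusted p = 0.14) or set 2 (adjusted p = 0.071) was left out. Of the 50-base windows of Acaca transcripts, 30.4% occur in other genes as well, mostly the predicted gene Gm5182, so its counts are uncertain.

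Fasn measured 92.3, 107 and 114 CPM in the control and 110, 203.5 and 257.5 CPM after verapamil. All treated libraries but V11, which fell within the control range, lay above the control libraries. Fasn rose 1.93-fold, from 106 ± 5.22 to 205 ± 39.8 CPM (log2 fold change 0.95, SE 0.089, edgeR adjusted p = 4.2e-09), and 2.01-fold without V11. The ratio of Fasn to Acaca counts was 1.06 in the control and 1.66 after verapamil, a log2 difference of 0.64 (permutation test, p = 2e-05, adjusted p = 4e-05), again with 12 of 12 treated libraries above all controls. The log2 difference was 0.27, 0.82, 0.93 and 0.56 in sets 1 to 4, and the difference between sets was not tested. The longest transcripts of Fasn and Acaca have 57.9% and 49.1% GC. After correction for GC content and length the log2 difference of the ratio was 0.49 (permutation test, p = 2e-05, adjusted p = 2.7e-05).

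The stearoyl-CoA desaturases Scd1 and Scd2, which make monounsaturated fatty acids, both rose. Scd1 measured 193, 209 and 220 CPM in the control and 157, 390 and 403 CPM after verapamil. Scd2 measured 217, 237 and 251 CPM in the control and 206, 410 and 437 CPM after verapamil. For both genes V11 was below every control library and the other 11 treated libraries were above every control library.

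Scd1 increased 1.75-fold (log2 fold change 0.80, SE 0.095, edgeR adjusted p = 1.9e-07) and Scd2 1.65-fold (0.73, SE 0.078, adjusted p = 4.2e-08). Without V11 the log2 fold changes were 0.87 and 0.78. The Scd1 to Scd2 ratio was 0.885 in the control and 0.925 after verapamil, a log2 difference of 0.064 that did not pass the permutation test (p = 0.147). It did pass without V11 (0.089, p = 0.0187), without set 4, which holds V11 (0.105, p = 0.023), and after correction for GC content and length (0.15, p = 0.0246). It did not pass without set 1 (p = 0.559), set 2 (p = 0.313) or set 3 (p = 0.204). Nor did it pass with the sums per set (exact permutation test, p = 0.286) or as differences of set means. Of the 50-base windows, 4.56% for Scd1 and 3.97% for Scd2 occur identically in another gene, a measure that says nothing of more distant likeness between these relatives.

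Elovl6, the elongase that carries palmitate to stearate, was the least abundant member and varied the most. It measured 24.1, 26.4 and 28.6 CPM in the control and 15.6, 30.4 and 60.9 CPM after verapamil. Of the treated libraries, 6 lay above all controls, 3 below and 3 within. By set, the treated libraries measured 51.5, 45.4 and 57.2 CPM in set 1, 27.7, 20.2 and 25.1 CPM in set 2, 26.2, 16.5 and 33.1 CPM in set 3, and 60.9, 15.6 (V11) and 57.4 CPM in set 4. The high values thus lay in sets 1 and 4 and the low ones in sets 2, 3 and V11.

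Elovl6 rose 1.38-fold over all libraries (log2 fold change 0.46, SE 0.19, edgeR adjusted p = 0.039) and 1.45-fold without V11 (adjusted p = 0.013). The call was lost under 6 of 17 alternatives, among them the sums per set (0.48, adjusted p = 0.13) and the fit without set 1 (0.25, adjusted p = 0.34). Elovl6 has the lowest GC content of the 10 genes (44.0%), and the correlation of a treated library's deviation with GC content averaged 0.542 and 0.554 in sets 2 and 3, as against 0.188 and 0.158 in sets 1 and 4. After each library was corrected for its trends with GC content and length, the difference of Elovl6 was 1.13, 0.77, 0.74 and 0.93 (log2) in sets 1 to 4, and the change over all libraries was 0.92 (SE 0.082, adjusted p = 6.8e-10). With the same 2 trends as covariates it was 1.40 (SE 0.14), although these covariates go with the treatment (variance inflation 2.63). The trends removed by the correction go with the treatment as well. Their part in the differences of Elovl6 between sets was not tested.

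The fatty acid desaturases Fads1 and Fads2 introduce double bonds into polyunsaturated fatty acids. Fads1 measured 85.0, 94.3 and 102 CPM in the control and 134, 181 and 208 CPM after verapamil. Fads2 measured 500, 527 and 549 CPM in the control and 686, 813 and 981 CPM after verapamil. V11 was the lowest treated library for both, but still above every control library.

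Fads1 increased 1.91-fold, from 93.3 ± 5.76 to 179 ± 18.7 CPM (log2 fold change 0.94, SE 0.054, edgeR adjusted p = 4.9e-13). Fads2 increased 1.57-fold, from 526 ± 18.4 to 825 ± 82.0 CPM (0.65, SE 0.046, adjusted p = 2.7e-11). The Fads pair changed by different amounts, as the Fads1 to Fads2 ratio rose from 0.177 to 0.216, a log2 difference of 0.29 (permutation test, p = 4e-05, adjusted p = 5.3e-05), with 10 of 12 treated libraries above all controls. The difference was between 0.21 and 0.36 in each of the 4 sets.

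Me1, the cytosolic malic enzyme, was the member that did not pass. It measured 35.0, 39.8 and 46.2 CPM in the control and 31.2, 37.6 and 43.0 CPM after verapamil. The groups overlapped, as 9 of 12 treated libraries lay within the control range and 3 lay below it. The log2 fold change was −0.12 (SE 0.054, edgeR adjusted p = 0.066), and −0.14 without V11, where it passed (adjusted p = 0.019). After the GC and length correction it was 0.17 and passed in the other direction (adjusted p = 0.026), so no direction is given for Me1. Of its 50-base windows, 22.9% occur in other genes, mainly Gm7049.

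**Figure D2:**
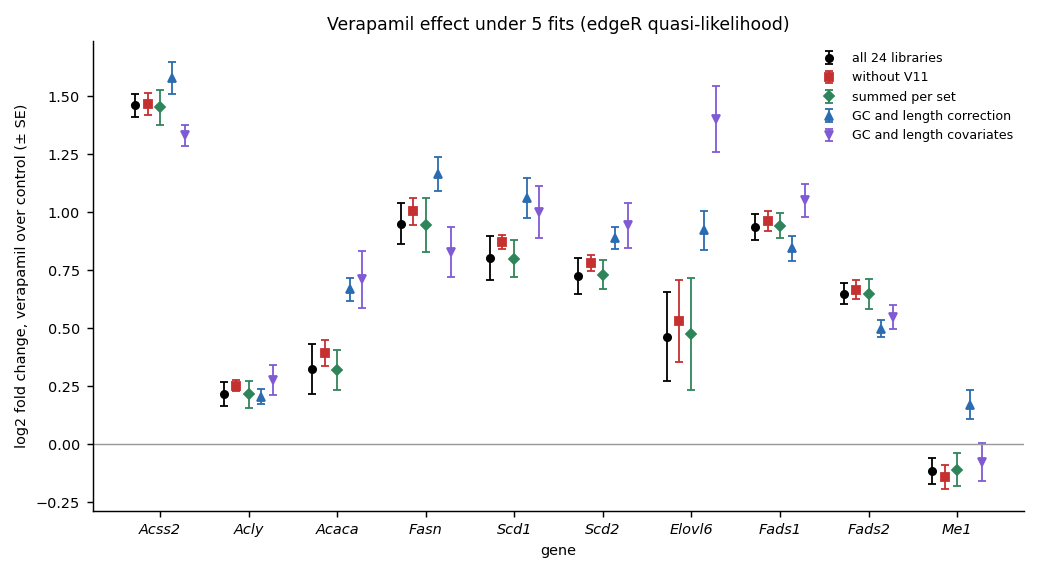
Log2 fold change of verapamil over control for each gene, with SE bars, in edgeR fits on all 24 libraries, without V11, on counts summed per set, after correction of each library for GC content and length, and with these trends as covariates. Acss2 lies highest in all fits but that with covariates, where Elovl6 reaches 1.40, and Me1 lies on either side of 0.

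The plot of fold changes under 5 fits sets these values side by side. With the GC and length correction all 10 genes were significantly higher, against 33.1% of all genes, and with the covariates 9 were, against 11.3% of all genes. Acss2, Acly, Fasn, Scd1, Scd2, Fads1 and Fads2 kept their direction and their call in each of 17 alternatives. Their log2 fold changes ranged from 1.33 to 1.58 for Acss2, 0.83 to 1.17 for Fasn, 0.85 to 1.05 for Fads1 and 0.50 to 0.69 for Fads2. The correction raised the change of Acaca from 0.32 to 0.67, whereas it lowered that of Fads2 from 0.65 to 0.50.

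The place of V11 differed from gene to gene. It lay below every control library for Acly, Acaca, Scd1, Scd2 and Elovl6, 5 of the 10 genes, as it did for 37.9% of all genes. For Acss2, Fads1 and Fads2, whose longest annotated transcripts have 3609, 3460 and 3150 bases, it lay above every control library, and for Me1 (3292 bases) it lay within the control range. The longest transcripts of Acaca and Fasn have 9513 and 10050 bases, and V11 differed from the control mean by −0.96 and 0.046 (log2). After the correction these differences were 0.32 and 1.07. The corrected differences of V11 were 1.547 for Acss2, 0.508 for Fads1, 0.483 for Scd2, 0.338 for Me1, 0.240 for Elovl6, 0.226 for Fads2 (0.381 before the correction) and 0.198 for Scd1, while Acly remained below the control mean (−0.061).

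The effect was then compared between the 4 experiment sets. With all 24 libraries the interaction of set and treatment passed for 0 of the 10 genes, against 9.72% of all genes (edgeR; lowest adjusted p = 0.10, for Acss2 and Fads2). At an unadjusted p under 0.05 the count was 4 (Acss2, Fasn, Elovl6 and Fads2), against 26.2% of all genes. Without V11 these same 4 passed, against 32.9% of all genes, with Elovl6 at adjusted p = 0.00057, Acss2 at 0.038, Fasn at 0.039 and Fads2 at 0.043. The log2 fold change of Elovl6 was 0.95 in set 1 (adjusted p = 0.00023), −0.14 in set 2 (0.32), −0.07 in set 3 (0.81) and 1.17 in set 4 without V11 (3.0e-05). Acss2, Fasn and Fads2 went the other way round, with the higher changes in sets 2 and 3: Fasn measured 0.84, 1.14, 1.12 and 0.81, and Fads2 0.52, 0.78, 0.74 and 0.57, both without V11 in set 4. The share of GC in the transcripts of Fasn and Fads2 is 57.9% and 54.4%, the highest of the 10, while Acss2 has 47.8%. After the GC and length correction Fasn measured 0.979, 1.355, 1.287 and 0.973 in sets 1 to 4, with V11 in set 4. Fads2 then measured 0.495, 0.557, 0.476 and 0.456, and Acss2 1.422, 1.804, 1.693 and 1.349. The part of GC content in these differences was not tested.

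**Figure D3:**
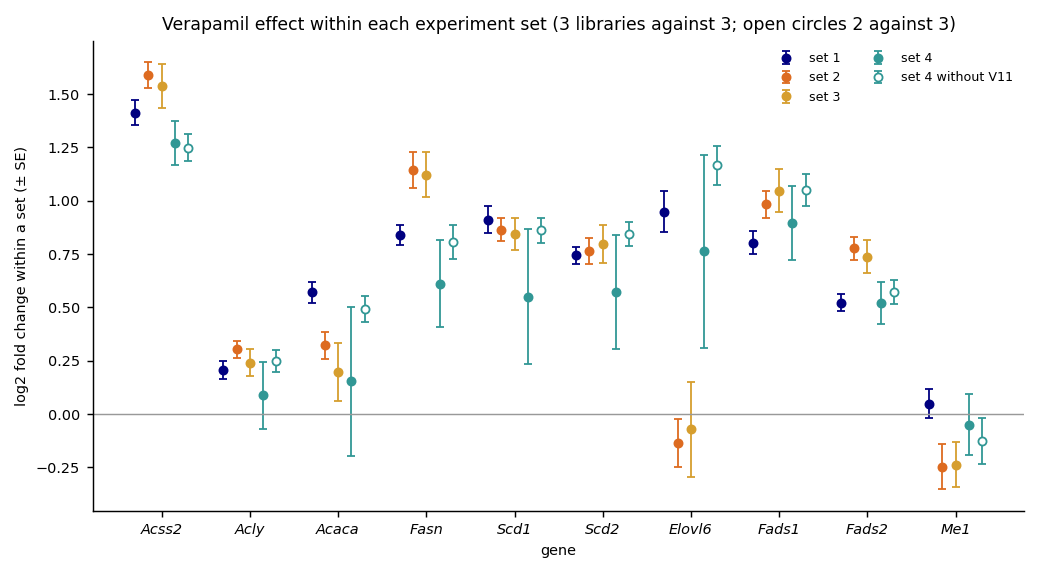
Log2 fold change within each experiment set (3 treated against 3 control libraries, SE bars), with open circles for set 4 without V11 (2 against 3). Elovl6 is near 0 in sets 2 and 3 and near 1 in set 1 and in set 4 without V11, while Scd1 and Scd2 lie between 0.74 and 0.91 in all sets once V11 is left out.

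Within single sets, 9, 8 and 7 of the 10 genes were significantly higher in sets 1, 2 and 3, against 13.7%, 26.3% and 19.9% of all genes. In set 4 it was 1 gene (Acss2) with V11, against 0.317% of all genes, and 9 without it, against 6.01%. Every gene but Elovl6 and Me1 had a positive log2 fold change in all 4 sets. When counts were summed per set and group (4 sums against 4), 8 of the 10 genes were higher (edgeR), against 24.4% of all genes. For these 8 genes all 4 verapamil sums were above all 4 control sums. In a two-sided exact permutation test each had p = 0.0286, the lowest value 4 sums against 4 can give. The groups overlapped for Elovl6 (exact p = 0.429) and Me1 (exact p = 0.143). The share of all genes with such a separation was not counted, so it is not read as particular to these genes.

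**Figure D4:**
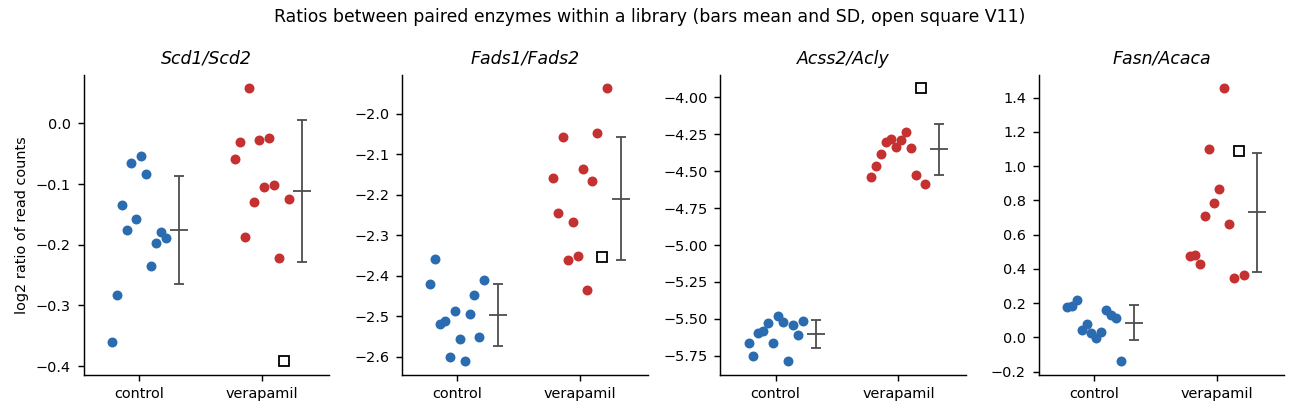
Log2 ratio of read counts of 2 enzymes within each library, for control (blue) and verapamil (red; V11 as an open square), with bars for mean ± SD of 12 libraries. Acss2/Acly and Fasn/Acaca do not overlap between groups, Fads1/Fads2 overlaps in 2 treated libraries, and Scd1/Scd2 overlaps widely with V11 lowest, at −0.39.

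Levels between genes were compared per length, as CPM per kilobase of the longest annotated transcript. In the control Acly led with 579 ± 10.8 (SD, n = 12), followed by Fads2 with 167 ± 5.85. Scd2 (43.4 ± 2.07) and Scd1 (43.3 ± 1.59) did not differ beyond their spread. Fads1 (27.0 ± 1.66), Acss2 (14.6 ± 0.825) and Me1 (12.2 ± 1.01) came next, and Fasn (10.6 ± 0.520) and Acaca (10.5 ± 0.472) lay within 1 SD of each other. Elovl6 was lowest, at 4.44 ± 0.211. After verapamil, Acss2 reached 40.3 and Fasn 20.4, and Me1 (11.2) then lay below Fasn and Acaca (13.2). The place of Acss2 depends on the length used, as it drops below Me1, Fasn and Acaca in the control when all annotated exons (5.19 CPM per kilobase) are counted.

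The genes around the pathway were described from 11 lists, with counts from the same edgeR test and no test of a list. They are to be read against the 31.2% of all genes that were higher, the 31.6% that were lower and their median of −0.003. With the GC and length covariates, 1388 of all 12306 genes were higher (11.3%) and 1067 lower. With the GC and length correction 4070 were higher (33.1%) and 3012 lower. Counts below from those 2 fits are to be read against these. Of the measured regulators of lipogenesis, 10 of 17 rose, 5 fell and 2 did not pass (median log2 fold change 0.22). With the covariates 5 rose, 1 fell and 11 did not pass (median 0.08). With the correction 8 rose, 2 fell and 7 did not pass (median 0.08). Insig1, which holds SREBPs in the endoplasmic reticulum and is itself an SREBP target, rose from 27.0 ± 1.64 to 99.0 ± 13.7 CPM (log2 fold change 1.87, SE 0.068, adjusted p = 2.1e-17). Mid1ip1, which activates acetyl-CoA carboxylase, rose by 0.89, and Srebf2, which encodes the sterol-directed SREBP, by 0.79. Srebf1, the SREBP gene of fatty acid synthesis, rose by 0.28 (SE 0.057, adjusted p = 0.00021), from 87.1 ± 7.32 to 106 ± 10.96 CPM, with 9 of 12 treated libraries above all controls. It did not pass with the GC and length covariates (0.13, adjusted p = 0.23), but did with the correction (0.20, adjusted p = 0.00033). Mlxipl, which encodes the glucose-sensing factor ChREBP, fell by 0.42 (SE 0.081, adjusted p = 0.00012), from 488 ± 41.9 to 365 ± 62.6 CPM. Mlxipl did not pass with the covariates (−0.06, adjusted p = 0.62), but was lower with the correction (−0.54, adjusted p = 2.9e-05). Nr1h2, which encodes a liver X receptor, rose by 0.32, and did not pass with either GC adjustment (0.08 and 0.03).

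Of the suppliers of citrate and acetyl-CoA, 7 of 11 rose and 1 fell (median 0.21). Slc25a1, the mitochondrial citrate exporter upstream of Acly, rose from 75.0 ± 4.12 to 130 ± 21.4 CPM (log2 fold change 0.79, SE 0.071, adjusted p = 2.2e-09), in 12 of 12 treated libraries, and the pyruvate carrier gene Mpc1 by 0.40 (0.10 with the covariates, adjusted p = 0.36). These are values of RNA. In the paper's proteomics Slc25a1 protein was lower after verapamil, while Acss2 and Mid1ip1 protein were higher. Pdha1, a subunit of pyruvate dehydrogenase, fell by 0.57, although with the covariates it measured 0.17 (adjusted p = 0.54). With the covariates 1 of the 11 rose. With the correction 8 rose and 1 fell, with Mpc1 at 0.31 (adjusted p = 7.2e-05) and Pdha1 at −0.41 (adjusted p = 0.0066).

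A list drawn around cytosolic NADPH supply had 5 of 9 genes higher and 1 lower (median 0.27). It also holds Me2 and Me3, genes of mitochondrial malic enzymes, and the 1 lower gene was Me2 (−0.40). Me2 did not pass with the correction (−0.10, adjusted p = 0.13) or the covariates (0.09, adjusted p = 0.56). Tkt, Pgd and Pgls of the pentose phosphate pathway rose by 0.50, 0.49 and 0.44. With the covariates 2 of 9 rose and 1 fell (Me3, −0.40, adjusted p = 0.0036). There Pgd (0.26, adjusted p = 0.41) and Pgls (−0.14, adjusted p = 0.30) did not pass. With the correction both were higher (Pgd 0.57, adjusted p = 0.0013; Pgls 0.23, adjusted p = 0.0058). The mitochondrial route of fatty acid synthesis had 2 of 6 genes higher and 1 lower (median 0.16), with Mcat up by 0.69 and the acyl carrier gene Ndufab1 by 0.40, and 0 of 6 were higher with the covariates. With the correction Mcat (0.42, adjusted p = 0.00094) and Ndufab1 (0.73, adjusted p = 4.9e-05) were higher.

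The relatives of the chain-modifying enzymes had lower medians than the 10 enzymes. Of the other elongases and elongation cycle genes 4 of 10 rose and 1 fell (median 0.13). Elovl1 rose by 0.64 and the reductase gene Tecr by 0.41, Elovl2 fell by 0.57, and Elovl5, which elongates the products of Fads2, measured −0.14 (adjusted p = 0.13). Of the other desaturases and their electron donors 5 of 8 rose and none fell (median 0.27), with Scd3 up by 0.56 (5.44 to 8.01 CPM), Fads3 by 0.44 and the cytochrome b5 reductase gene Cyb5r3 by 0.28. With the covariates 3 of the 10 and 3 of the 8 rose, and Tecr (0.13, adjusted p = 0.16) and Cyb5r3 (0.03, adjusted p = 0.74) did not pass. With the correction Tecr (0.11, adjusted p = 0.010) and Cyb5r3 (0.08, adjusted p = 0.041) were higher.

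Among genes that handle the products, 13 of 20 of glycerolipid synthesis, storage and breakdown rose and 2 fell (median 0.25). Pcyt2 of phosphatidylethanolamine synthesis rose by 0.88, the phosphatidate phosphatase gene Lpin1 by 0.74, and Plin2, which coats lipid droplets, by 0.66. These 3 also rose with the covariates, where 7 of 20 were higher. Of acyl-CoA synthetases and carriers 4 of 12 rose and 2 fell (median −0.07). Fabp3 rose by 0.70 and Acot7 by 0.56, and Acsl1 fell by 0.58. After the GC and length correction none of the 3 passed, with Fabp3 at 0.39 (adjusted p = 0.19), Acot7 at 0.27 (adjusted p = 0.054) and Acsl1 at −0.08 (adjusted p = 0.24). With the covariates Acsl1 was lower (−0.25, adjusted p = 0.038). Fabp3 (0.63, adjusted p = 0.29) and Acot7 (0.25, adjusted p = 0.41) did not pass there.

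AMP-activated kinase phosphorylates and inhibits acetyl-CoA carboxylase. Of its 7 measured genes, that of its activating kinase included, 2 rose and 3 fell (median 0.05). The 3 were Prkaa2 (−0.98), Prkab2 (−0.74, from 1.905 to 1.155 CPM) and Prkaa1 (−0.52). With the GC and length correction 0 fell, and Prkaa1 passed in the other direction (0.11, edgeR adjusted p = 0.021). With the covariates 0 of the 7 rose and 0 fell. Enzymes of sterol synthesis and uptake, the other arm of the SREBP pathway, rose in 18 of 18 (median 1.32, 17 of 18 with the sums per set), led by Tm7sf2 (2.25), Fdps (2.06) and Msmo1 (1.90). All 18 also rose with the correction and with the covariates. Mitochondrial fatty acid oxidation had 1 of 17 higher and 8 lower (median −0.18), with Acadl at −0.62, Etfdh at −0.60 and the carnitine palmitoyltransferase gene Cpt2 at −0.47, each of which fell. With the covariates 7 were lower, and Acadl did not pass (−0.43, adjusted p = 0.18). With the correction 8 were lower, Acadl among them (−0.43, adjusted p = 0.0053). Acacb, Nr1h3 and Thrsp were not analysed here.

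**Figure D5:**
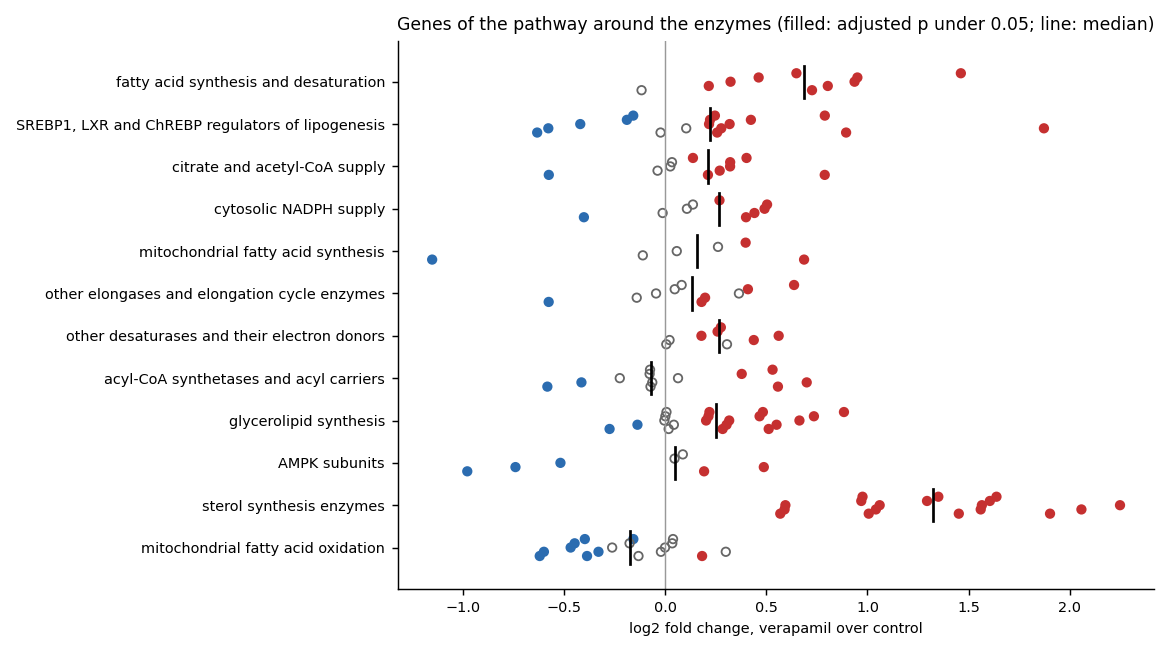
Log2 fold change of each measured gene in the 10 enzymes and 11 lists around them, filled where the adjusted p is under 0.05 (red higher, blue lower), with a black line at the median of a list. The median is 0.69 for the fatty acid enzymes and 1.32 for sterol synthesis, and it lies between −0.18 and 0.27 for the other lists.

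The 10 enzymes thus had a median between that of sterol synthesis and those of the other lists in the plot of the pathway. Their own range ran from −0.12 for Me1 to 1.46 for Acss2, and 2 of the 18 sterol genes named above (Tm7sf2 and Fdps) exceeded a log2 fold change of 2. The order within the enzymes was Acss2, Fasn, Fads1, Scd1, Scd2, Fads2, Elovl6, Acaca, Acly and Me1. Fasn and Fads1 (0.95 and 0.94), and Scd1 and Scd2 (0.80 and 0.73), had fold changes within 1 standard error (0.054 to 0.095) of each other. Without V11 those of Scd1 (0.87, SE 0.031) and Scd2 (0.78, SE 0.033) were further apart than that. The genes were measured in the same libraries, so these standard errors do not test a difference between genes.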

How the data were processed

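RNA sequencing was carried out on 12 verapamil-treated and 12 untreated MIN6 libraries. The deposited values are raw counts of reads per gene, which the authors obtained with bcl2fastq 2.20, Trimmomatic 0.39, HISAT2 2.1.0 on GRCm38 and HTSeq 0.9.1. Not given in the sources used here: whether strand was used in counting, and the annotation release. The methods name a stranded mRNA kit and the labels a different kit. The authors' own columns of fold changes and p-values were not used. The first digit of each library's description was read as its experiment set, which no source spells out. The names of 4 columns fit more than 1 sample, so these served as unnumbered replicates of their group, in set 4 by elimination.

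Counts were tested in R 4.3.3 with edgeR 4.0.16 (genes kept by filterByExpr at a minimum count of 10 and total of 15; TMM; quasi-likelihood test; Benjamini-Hochberg over 12306 genes, threshold 0.05). Trends with GC content and the longest GENCODE M21 transcript were fitted per library with splines of 5 degrees of freedom and removed as offsets, or entered as covariates. Ratios were tested with permutation tests in scipy 1.17.1. Alternatives included DESeq2 1.42.0 and limma 3.58.1 (voom with sample weights), other scaling and filters, blocks, sums per set, and leaving out sets. The fits without V11 or without the 4 unnumbered libraries were chosen after seeing the data. Counts in a library were 12590476 to 44806556, so counting error is small for the 10 genes (at least 330 counts each). Scripts were tested on simulated data.

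The genes and lists were chosen with earlier results of these data known. Named are all 10 enzymes, of each list the 3 called genes with the largest change among those with a mean of at least 1 CPM, and Srebf1, Srebf2, Mlxipl, Nr1h2, Nr1h3, Insig1, Mid1ip1, Acacb, Elovl5, Fads3 and Slc25a1 whatever their values. Outside this rule, Thrsp was named without a value, and Mafa, Nkx2-2, Me2 and Me3 after their values were seen. Of the marker lists, acinar and ductal cells had 1 of 8 genes in the table (Sox9), and fibroblast, endothelial and immune cells 0 of 8. A further marker list is not reported here.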

Additional observations from a re-analysis of the deposited data

Results flagged for a closer look

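Over the 4 sums per set, 28 groups were examined for a value far from the others, and chance would flag about 1 in 20 of such groups. The verapamil sum of Scd1 in set 4 (308.5 CPM, with V11 in it) lay apart from those of the other sets (380 to 388 CPM), with a gap of 0.897 of the range of the 4 sums. In the control, 1 of the 4 log2 ratios of Fasn to Acaca lay apart by 0.904 of the range.

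The effect of verapamil differed between experiment sets in fits without V11 for Elovl6 (interaction adjusted p = 0.000572), Acss2 (0.03798), Fasn (0.03889) and Fads2 (0.04326). These are 4 of the 10 genes, near the 32.9% of all genes that passed this interaction without V11. With all libraries the same interactions had adjusted p from 0.10 to 0.17. The treated libraries of sets 2 and 3 also differed from those of sets 1 and 4 in how far their counts followed GC content, and the part of this in the differences was not tested. With each library corrected for these trends, the log2 differences of Elovl6 ranged from 0.74 to 1.13 over the 4 sets, and those of Acss2 from 1.35 to 1.80. Those of Fasn ranged from 0.973 to 1.355 and those of Fads2 from 0.456 to 0.557.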

How the results depend on the processing

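The count of 9 higher genes was 7 to 10 over 17 alternatives. The count of lower genes was 0, and 1 (Me1) with library size only, with the replicate block by number, without experiment set 1 or 4, without V11, and without the 4 unnumbered libraries. Me1 reversed with the GC and length correction (0.17). Without V11 the interaction of set and treatment passed for 4 of the 10 genes in place of 0, and for 32.9% of all genes in place of 9.72%. The Scd1 to Scd2 difference passed without set 4 (0.105), with the correction (0.15) and without V11 (0.089). It did not pass without set 1, 2 or 3, with the sums per set or as differences of set means. Of the genes of the 11 lists, 42 were higher and 12 lower with the covariates, and 15 were lower with the correction. The causes were not tested. With the sums per set, Acly and Acaca lost their calls without set 2 (0.17 and 0.30; adjusted p = 0.15 and 0.11) or set 3 (0.20 and 0.35; adjusted p = 0.13 and 0.072). Over all genes 7726 passed, and 5129 with the sums, 5370 without set 2 and 2455 with the covariates.

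Replicate numbers did not pair the libraries: same-numbered deviations from the group means correlated at −0.051 to 0.114, those of a set at 0.0158 to 0.0688, and 1 of 10 numbered treated libraries correlated best with its own number. With the block by experiment set or by number 8 genes were higher, as Elovl6 no longer passed (0.39, adjusted p = 0.065, and 0.33, adjusted p = 0.14), and with the block by number Me1 was lower (−0.15, adjusted p = 0.041). As differences of set means within the block, the ratio differences of Fads1 to Fads2 (0.288), Acss2 to Acly (1.251) and Fasn to Acaca (0.644) each had p = 0.125, the smallest that 4 sets allow (adjusted p = 0.167).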
